A study of Homo sapiens with 4 samples.

Results

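Succinate dehydrogenase, complex II of the respiratory chain, was followed here through the 8 genes that encode its subunits and its assembly factors in MV4-11 cells with and without knockdown of CEBPG. The members were taken by symbol, and the levels of all RefSeq rows of a symbol were summed per library. The 8 genes had 17 RefSeq rows with a value and were 8 of the 16490 genes in the table. The set was chosen by function with the FPKM values of sh-CEBPG#3 against sh-NC cells already known, so the differences of its members are given as a description, without p-values, and nothing is read from how many of them pass a threshold. MV4-11 is a human acute myeloid leukemia (AML) cell line. The control cells carried the sh-NC hairpin (2 libraries) and the knockdown cells carried sh-CEBPG#3 (2 libraries), each as a puromycin-selected population infected with a pLKO.1-puro lentivirus. The MV4-11 libraries used here hold only 1 hairpin against CEBPG, so in them an effect of losing CEBPG and an effect of that hairpin cannot be told apart. Whether both libraries of a group trace back to separate infections is not given in the sources used here, so p-values measure only the spread between these libraries, which may be technical.

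Complex II sits in the inner mitochondrial membrane and works both in the tricarboxylic acid (TCA) cycle and in the respiratory chain. SDHA carries a covalently bound FAD and oxidizes succinate to fumarate, and SDHB passes the electrons on through iron-sulfur clusters. SDHC and SDHD anchor these catalytic subunits in the membrane, hold a haem b between them and form the site where ubiquinone is reduced. SDHAF2 promotes the attachment of FAD to SDHA, SDHAF4 binds the flavinylated SDHA, and SDHAF1 and SDHAF3 assist the maturation of SDHB. Loss of a subunit stops the complex from forming and lets succinate build up, and the genes are known as tumor suppressors in paraganglioma.

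The levels are FPKM, fragment numbers scaled to the length of the transcript and to the mapped reads of the library, so that genes can be compared with each other. FPKM totals ranged from 364353 to 389766 per library, and the depth is unknown, since single reads could not be recognized in the low values. Log2 fold changes are differences of log2(FPKM + 1) between sh-CEBPG#3 and sh-NC cells, so that a negative value means a lower level after knockdown. CEBPG itself, the targeted gene, had 30.4 and 33.6 FPKM in sh-NC cells against 19.2 and 17.1 FPKM after knockdown, which left 56.8% of the control level. Of 9 myeloid markers 8 had values, among them FLT3, SPI1 and MPO, while of 15 markers of T, B, erythroid, epithelial and fibroblast cells 3 had values, at 1.33 FPKM or less, and the other 12 were not analysed here. The summed level of the 8 myeloid markers was 866 and 940 FPKM in sh-NC cells and 3532 and 3363 FPKM in sh-CEBPG#3 cells, largely through LYZ, and its part in the results below was not tested.

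SDHD stood apart from the other members. It had 70.7 and 73.8 FPKM in sh-NC cells against 23.04 and 22.9 FPKM after knockdown. Both knockdown libraries were thus far below both control libraries. Averages of 72.3 ± 2.20 and 22.98 ± 0.0840 FPKM (SD, n = 2 each) left 31.8% of the control, a difference of 3.14-fold. Its log2 fold change was -1.61 with a standard error of 0.07, which placed SDHD 16th from the lowest of the 12142 genes tested. In these bulk libraries less SDHD RNA per cell and a smaller share of cells with SDHD cannot be told apart.

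The catalytic subunits showed no such difference. SDHA had 49.3 and 53.3 FPKM in sh-NC cells against 50.8 and 49.7 FPKM after knockdown, with a log2 fold change of -0.03 (standard error 0.07). SDHB had 51.8 and 52.2 FPKM in sh-NC cells against 55.3 and 48.1 FPKM after knockdown, with a log2 fold change of -0.01 (standard error 0.08). For both genes the groups overlapped. SDHC, the other membrane anchor and the direct partner of SDHD, had 34.2 and 35.8 FPKM in sh-NC cells against 37.2 and 33.1 FPKM after knockdown. Its means of 34.96 ± 1.14 and 35.1 ± 2.90 FPKM (SD, n = 2 each) were closer to each other than the libraries of either group, and its log2 fold change was 0.004 with a standard error of 0.08.

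The assembly factors were all expressed at lower levels than the catalytic subunits. SDHAF2, the flavinylation factor of SDHA, had 20.6 and 23.2 FPKM in sh-NC cells against 29.5 and 27.6 FPKM after knockdown. Both knockdown libraries were above both control libraries, at 130% of the control mean, and the log2 fold change was 0.37 (standard error 0.08). SDHAF1 had 13.8 and 13.98 FPKM in sh-NC cells against 14.3 and 14.8 FPKM in sh-CEBPG#3 cells, a log2 fold change of 0.06 (standard error 0.08). SDHAF4 had 12.2 and 13.9 FPKM in sh-NC cells against 13.9 and 14.5 FPKM in sh-CEBPG#3 cells, a log2 fold change of 0.12 (standard error 0.09). In these 2 genes the groups did not overlap, but their nearest libraries lay close together. SDHAF3 had 10.5 and 9.23 FPKM in sh-NC cells and 11.2 and 10.02 FPKM in sh-CEBPG#3 cells, and its groups overlapped.

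As a description of the values that chose the set, 2 of the 8 members were past an adjusted p under 0.05 in the limma fit over all genes, 1 lower (SDHD) and 1 higher (SDHAF2), where 42.2% of all genes tested passed (23.8% lower and 18.5% higher). By the threshold of a log2 fold change beyond 1 in either direction with an unadjusted p under 0.05, SDHD alone was past it, where 3.41% of all genes did (1.05% lower and 2.36% higher). In 4 of the 8 members the groups did not overlap, where this was so in 71.7% of all genes. All 8 members passed the filter of a mean of at least 0.5 FPKM. The median log2 fold change was 0.03 over the members and -0.04 over all genes tested. The member median was -0.01 without sh-CEBPG#3 replicate 1 and 0.09 without sh-CEBPG#3 replicate 2, and the median of all genes was -0.07 and -0.005. Without sh-NC replicate 1 the medians were 0.005 and -0.07, and without sh-NC replicate 2 they were 0.03 and -0.008. SDHAF2 was no longer past the threshold without sh-CEBPG#3 replicate 1 or with each transcript tested by itself, and 1 member was then left. SDHAF2 has 1 RefSeq row, so its log2 fold change with each transcript tested by itself was the same, 0.37.

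The order of the levels changed with SDHD. In sh-NC cells SDHD was the most abundant of the 8 mRNAs, followed by SDHB and SDHA, whose values overlapped, then SDHC, SDHAF2, SDHAF1, SDHAF4 and SDHAF3. Among the last 3, SDHAF1 and SDHAF4 had overlapping values in sh-NC cells. In sh-CEBPG#3 cells SDHD ranked 5, below SDHAF2, and it was the only subunit whose mRNA lay below that of an assembly factor. Ratios taken inside a library do not depend on how the libraries were scaled. SDHD was 1.57 and 1.57 times the mean of SDHA, SDHB and SDHC in the sh-NC libraries and 0.483 and 0.526 times in the sh-CEBPG#3 libraries. Against SDHC alone, the ratio went from a mean of 2.07 to 0.657. SDHC over the mean of SDHA and SDHB had means of 0.677 in sh-NC cells and 0.688 in sh-CEBPG#3 cells, and the libraries overlapped.

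The RefSeq rows of SDHD showed that its difference was that of the main transcript. NM_003002 had 69.0 and 71.8 FPKM in sh-NC cells against 21.7 and 21.8 FPKM after knockdown, a difference of 3.23-fold. It made up 97.6% and 97.2% of the summed level in sh-NC cells and 94.3% and 95.1% in sh-CEBPG#3 cells. The other 4 rows together had 1.69 and 2.06 FPKM in sh-NC cells and 1.30 and 1.13 FPKM in sh-CEBPG#3 cells. NM_001276503 was the largest of them, with 1.19 and 1.17 FPKM in sh-NC cells, while in sh-CEBPG#3 cells it was listed at 0 in replicate 1 and had 0.757 FPKM in replicate 2. NM_001276506 had 0.221 and 0.113 FPKM in sh-NC cells and 0.487 and 0.101 FPKM in sh-CEBPG#3 cells. The non-coding row NR_077060 had 0.283 and 0.643 FPKM in sh-NC cells and 0.745 and 0.269 FPKM in sh-CEBPG#3 cells, and NM_001276504 stayed at 0.131 FPKM or less in every library. The groups overlapped in these last 3 rows. RefSeq names 7 pseudogenes of SDHD, which were not analysed here and can share reads with it. In SDHC, NM_003001 made up 85.4% to 89.3% of the summed level in the 4 libraries, and the 5 other rows reached at most 3.09 FPKM. Of these, NM_001035511 had 1.80 and 2.15 FPKM in sh-NC cells against 3.09 and 2.79 FPKM in sh-CEBPG#3 cells.

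SDHA has transcribed pseudogenes of near-identical sequence, so reads can be split between them. SDHAP1 had 7.18 and 7.40 FPKM in sh-NC cells and 7.05 and 6.42 FPKM in sh-CEBPG#3 cells (log2 fold change -0.10, adjusted p = 0.402 from limma). SDHAP3 had a mean of 3.80 FPKM in sh-NC cells and 3.82 FPKM in sh-CEBPG#3 cells (adjusted p = 0.982 from limma). SDHAP2 stayed at 0.157 FPKM or less and was not tested, and SDHAP4 was not analysed here. Neither tested pseudogene passed, at an unadjusted p of 0.293 and 0.973.

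On the GRCh38.p14 assembly SDHD lies on chromosome 11 from 112086873 to 112095794, on the plus strand. SDHAF2 lies on the same chromosome from 61430124 to 61446733. The other members are spread over chromosomes 1 (SDHB and SDHC), 5 (SDHA), 6 (SDHAF4), 7 (SDHAF3) and 19 (SDHAF1). The start of SDHD faces that of TIMM8B, which lies on the minus strand 117 bases away, so the TIMM8B start falls inside the promoter window of SDHD. TIMM8B encodes a small chaperone of the mitochondrial intermembrane space. It had 36.8 and 37.6 FPKM in sh-NC cells against 51.1 and 47.0 FPKM after knockdown. TIMM8B therefore rose where SDHD was lower (log2 fold change 0.39, standard error 0.08, limma adjusted p = 0.00257). Its log2 fold change was 0.33 to 0.44 with a library left out. With each transcript tested by itself TIMM8B did not pass (limma adjusted p = 0.0719). The ratio of SDHD to TIMM8B within a library went from 1.92 and 1.96 to 0.451 and 0.488. TIMM8B was singled out for its position after its values were seen. SDHA and SDHAF2 also start head-to-head with another gene, CCDC127 at 167 bases and CPSF7 at 149 bases, and neither of these passed (adjusted p = 0.0611 and 0.0592 from limma). Both were lower after knockdown, with log2 fold changes of -0.24 for CCDC127 and -0.21 for CPSF7, whose partner SDHAF2 was higher. Over all tested genes, 780 pairs start head-to-head within 1000 bases. Outside the members, 12 genes of such pairs fell with a log2 fold change below -1. Of their partners 6 fell, 1 rose and 5 did not pass, where 23.8% of all genes tested fell and 18.5% rose. With 12 such genes, no rule for pairs is read from these counts.

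The promoters of SDHD and SDHB are shown to set the anchor that differed beside a subunit that did not. Each is 300 bases of the RefSeq table on GRCh38.p14, from 250 before to 50 after the start of the gene, 5′ to 3′ on its own strand. Capitals mark exact matches on either strand to GCGCATGC (reverse complement GCATGCGC), the core letters of the NRF1 motif, a factor known for driving nuclear genes of the respiratory chain, and to the ETS motif CCGGAAG (reverse complement CTTCCGG). The window of SDHD is chr11:112086623-112086922 on the plus strand, and that of SDHB is chr1:17053983-17054282 on the minus strand.
SDHD: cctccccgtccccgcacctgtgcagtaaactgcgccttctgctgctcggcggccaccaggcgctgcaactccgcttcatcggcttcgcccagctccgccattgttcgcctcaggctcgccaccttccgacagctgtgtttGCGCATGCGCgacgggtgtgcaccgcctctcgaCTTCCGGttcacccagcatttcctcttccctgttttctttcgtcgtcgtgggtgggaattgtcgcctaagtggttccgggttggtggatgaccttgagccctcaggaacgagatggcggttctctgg
SDHB: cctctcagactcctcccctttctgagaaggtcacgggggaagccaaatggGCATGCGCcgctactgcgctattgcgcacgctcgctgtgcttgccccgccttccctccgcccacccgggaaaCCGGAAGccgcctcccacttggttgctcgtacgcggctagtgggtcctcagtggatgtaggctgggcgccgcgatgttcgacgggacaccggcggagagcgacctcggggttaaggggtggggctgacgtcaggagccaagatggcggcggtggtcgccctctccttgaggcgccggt
The NRF1 core was in 3 of the 7 members with a promoter entry, SDHD, SDHB and SDHAF2, against 3.05% of 35116 promoters of this length. This core was searched after a longer form of the motif, which among the members was found in SDHD alone. The count of 3 is therefore a description and not a planned comparison. In SDHD it was read on both strands, in overlapping matches from -110 to -101 before the start. The ETS letters were in 4 of the 7, SDHD, SDHB, SDHAF2 and SDHAF3, against 10.3% of all promoters. The CCAAT box CCAAT, the C/EBP palindrome TTGCGCAA and the joint C/EBP-ATF site TGATGCAA were searched on both strands as well, and 0 of the 7 windows held any of these letters. They were found in 34.6%, 0.151% and 0.866% of all promoters. SDHC had no entry. A match or its absence in these windows says nothing of which factor binds there.

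Around SDHD, 10 other genes with a start within 500 kb were tested, with log2 fold changes from -0.52 to 0.54. Of these, 4 fell, 3 rose and 3 did not pass, where 23.8% of all genes tested fell and 18.5% rose. None of the 10 had a log2 fold change below -1. Over all genes tested, only 1.05% were below that value with an unadjusted p under 0.05 in limma, so its absence among 10 genes says little. NKAPD1, DLAT and PTS were singled out after their values were seen. The closest gene upstream beyond TIMM8B, NKAPD1, fell from 9.23 and 9.84 FPKM to 6.54 and 6.13 FPKM (log2 fold change -0.52, adjusted p = 0.00119 from limma). DLAT, the acetyltransferase subunit of pyruvate dehydrogenase, fell from a mean of 17.2 to 14.1 FPKM (log2 fold change -0.27, adjusted p = 0.0313 from limma), but did not pass without sh-NC replicate 2 or without sh-CEBPG#3 replicate 2 (adjusted p = 0.0960 and 0.219). PTS, an enzyme of tetrahydrobiopterin synthesis, rose from a mean of 4.30 to 6.72 FPKM (log2 fold change 0.54, adjusted p = 0.00384 from limma). With each transcript tested by itself, NKAPD1, DLAT and PTS did not pass (limma adjusted p = 0.224, 0.164 and 0.104).

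Genes that feed, build or share substrates with complex II were counted in 7 lists of 62 genes in all, of which 58 were tested. Of these 58, 10 rose, 14 fell and 34 did not pass an adjusted p under 0.05 in limma. The share that passed, 41.4%, was close to the 42.2% of all genes, and the median log2 fold change was 0.006. After quantile normalization 16 rose and 14 fell, and with equal FPKM totals 14 rose and 16 fell. With the replicate block 8 rose and 12 fell, and with a filter at 1 FPKM 11 rose and 14 fell. Without a filter 7 rose and 9 fell of 59 tested. Of the 24 genes that passed, 12 also passed in each of the 4 fits with a library left out. A fit with a library left out leaves a lone library in its group, assumed to vary like the other group, so passing it is no stricter test. With each transcript tested by itself 5 passed, NDUFAB1, ALAS1, ALAD, SLC25A38 and SQOR. An absolute log2 fold change above 1 was seen in 2 of the 58, NDUFAB1 and ALAS1.

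Of 8 genes of succinate supply, transport and sensing, 1 rose, 3 fell and 4 did not pass. SUCLG1, the shared subunit of succinyl-CoA ligase, had a mean of 28.5 ± 0.776 FPKM in sh-NC cells against 23.6 ± 1.89 after knockdown (SD, n = 2 per group, adjusted p = 0.0255 from limma). Of the subunits that give this enzyme its nucleotide specificity, SUCLA2 fell (log2 fold change -0.30, adjusted p = 0.0150) and SUCLG2 rose (0.34, adjusted p = 0.00725) in limma. ALDH5A1, which makes succinate from succinic semialdehyde, fell (-0.38, adjusted p = 0.0124 in limma), but its most abundant transcript by itself did not (0.036, adjusted p = 0.895 in limma). Each of these 4 calls was lost without 1 library or more. SUCLG1 did not pass without sh-CEBPG#3 replicate 2 (adjusted p = 0.222), SUCLA2 without that library or sh-NC replicate 2 (adjusted p = 0.102 and 0.0617), SUCLG2 without sh-CEBPG#3 replicate 1 (adjusted p = 0.0730) and ALDH5A1 without sh-NC replicate 2 (adjusted p = 0.0510). FH, the fumarase that takes up the product of complex II, had 46.1 and 51.2 FPKM in sh-NC cells and 53.2 and 48.4 FPKM in sh-CEBPG#3 cells, and did not pass (adjusted p = 0.582 from limma).

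Of 16 genes of iron-sulfur cluster assembly, 3 fell and 13 did not pass in limma, with a median log2 fold change of -0.08. NDUFAB1 had the largest difference of all partner genes. This mitochondrial acyl carrier protein binds the LYR family, to which SDHAF1 and SDHAF3 belong, and is also a subunit of complex I. It had 72.8 and 70.8 FPKM in sh-NC cells against 18.8 and 21.3 FPKM after knockdown, so 27.9% remained (log2 fold change -1.79, standard error 0.08, adjusted p = 1.95e-07 from limma). SDHD and NDUFAB1 thus had similar levels in sh-NC cells and similar levels in sh-CEBPG#3 cells. IBA57, a late factor of cluster assembly, fell from a mean of 3.53 to 2.59 FPKM and FDX2, a ferredoxin of the first steps, from 13.7 to 11.5 FPKM (adjusted p = 0.0268 and 0.0462 from limma). FDX2 passed in none of the fits with a library left out (adjusted p from 0.0711 to 0.236), and IBA57 not without sh-NC replicate 2 or sh-CEBPG#3 replicate 2 (adjusted p = 0.123 and 0.105).

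Of 9 genes of haem synthesis, 2 rose, 3 fell and 4 did not pass. ALAS1, the enzyme of the first step outside erythroid cells, rose from 28.5 and 29.7 FPKM to 71.8 and 69.1 FPKM (log2 fold change 1.25, standard error 0.07, adjusted p = 1.15e-06 from limma). SLC25A38, which brings glycine into the mitochondrion for that step, fell from a mean of 10.8 to 6.36 FPKM, and ALAD, the enzyme of the following step, from 13.1 to 8.49 FPKM (adjusted p = 0.000205 and 0.00121 from limma). With a library left out, the log2 fold changes were 1.22 to 1.28 for ALAS1, -0.72 to -0.64 for SLC25A38 and -0.69 to -0.45 for ALAD. The directions of these 3 genes differed along the pathway.

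Of 13 genes of ubiquinone synthesis and handling, 3 rose, 2 fell and 8 did not pass. COQ10B, a ubiquinone-binding protein, rose from a mean of 5.87 to 10.96 FPKM (log2 fold change 0.81, adjusted p = 0.000614 from limma). COQ2, which joins the ring to its isoprenoid tail, rose from 15.4 to 21.4 FPKM (adjusted p = 0.00217 from limma). COQ7, a hydroxylase of the pathway, fell from 5.55 to 3.89 FPKM (adjusted p = 0.0129 from limma). Without sh-CEBPG#3 replicate 1 COQ7 was still lower (log2 fold change -0.29), but its call was lost. Among 6 tested dehydrogenases that also pass electrons to ubiquinone, or hand them on to it, 1 rose, 2 fell and 3 did not pass. DHODH, the pyrimidine synthesis enzyme, fell from a mean of 10.2 to 5.47 FPKM (log2 fold change -0.79) and ETFDH from 6.67 to 4.74 FPKM (-0.42), while SQOR, the sulfide oxidizing enzyme, rose from 22.4 to 35.3 FPKM (0.63), with adjusted p = 0.000447, 0.00431 and 0.000286 from limma. With a library left out, the log2 fold changes were -0.96 to -0.62 for DHODH, -0.43 to -0.41 for ETFDH and 0.55 to 0.71 for SQOR. With each transcript tested by itself SQOR still passed, while DHODH and ETFDH did not (limma adjusted p = 0.0553 and 0.142), nor did COQ10B and COQ2 (0.0638 and 0.0613).

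Of 4 tested genes of FAD supply, 2 rose, 1 fell and 1 did not pass. RFK, which phosphorylates riboflavin, rose from a mean of 3.50 to 5.29 FPKM and the riboflavin transporter SLC52A2 from 36.96 to 43.4 FPKM, whereas FLAD1, which makes FAD, fell from 23.7 to 18.9 FPKM (adjusted p = 0.0134, 0.0309 and 0.0178 from limma). RFK did not pass without sh-CEBPG#3 replicate 1 (adjusted p = 0.0890), FLAD1 passed only without sh-NC replicate 1 and SLC52A2 only without sh-NC replicate 2. TRAP1, a mitochondrial chaperone that binds succinate dehydrogenase, rose from 77.5 to 89.2 FPKM (log2 fold change 0.20, adjusted p = 0.0471 from limma) and passed only without sh-NC replicate 2.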

How the data were processed

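The data are RNA-seq libraries of MV4-11 cells, 2 with the sh-NC hairpin and 2 with sh-CEBPG#3. According to the submitters' processing notes, reads were mapped with HISAT2 2.0.5 to hg38, and the table the authors deposited holds FPKM by RefSeq transcript in each library. The program that computed them is not given in the sources used here. Of 28780 rows, 28581 had values. Values were summed by gene symbol, and the 12142 genes averaging 0.5 FPKM or more were tested on log2(FPKM + 1) with limma 3.58.1 in R 4.3.3 (lmFit, eBayes with a trend, no block), with Benjamini-Hochberg adjustment over all of them. The authors used DESeq2, which takes counts and was not run here. With 2 libraries per group the p-values rest on limma's model of the spread across genes.

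The members and lists were chosen with earlier results of these data known. Named are all members, the enzymes next to complex II, and per list the 3 genes with the largest absolute log2 fold change at an adjusted p under 0.05. Neighbours of SDHD were named after their values were seen. Genes without a row (SLC52A1, SLC52A3 and CHDH) or with a mean under 0.5 FPKM (PRODH) were not tested. Tried as alternatives were a replicate block, transcripts tested singly, leaving out each library, quantile normalization, scaling to equal FPKM totals, a pseudocount of 0.1 or 0.01, and a filter at 1 FPKM or none. Gene positions and promoters are those of RefSeq on GRCh38.p14, read with Python 3.11.15, and strands those of GENCODE. The NRF1 core replaced a longer form of that motif, which had been searched first and among the members was found in SDHD alone.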

Additional observations from a re-analysis of the deposited data

How the results depend on the processing

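The log2 fold change of SDHD lay between -1.65 and -1.58 over all alternatives run, and that of SDHAF2 between 0.28 and 0.45. The number of members called, 2, was 1 when each transcript was tested by itself and 1 to 2 with each library left out, the lone library of its group then being assumed to vary like the other group. The number of partner genes called, 24, was 5 with each transcript by itself and 16 to 25 with each library left out, and that of all genes, 5128, was 1285 and 3876 to 5001. The log2 fold change of FH (0.06) spanned -0.01 to 0.14 when a library was left out and was -0.013 without sh-NC replicate 1 and -0.005 without sh-CEBPG#3 replicate 1. That of ALDH5A1 (-0.38) was 0.036 for its most abundant transcript. For SDHAF2, DHODH, COQ2, COQ10B, PTS and DLAT the log2 fold change was the same with each transcript tested by itself, so there only the test result differed. The share of NM_003002 in SDHD was 97.4% in sh-NC cells (97.2% to 97.6% with a library left out) and 94.7% in sh-CEBPG#3 cells (94.3% to 95.1%). Counted per gene and alternative, 55 values of single genes outside the members lost their call with the direction kept, for which the cause was not tested. These include the losses named above, except those of SDHAF2 and that of ALDH5A1 for its most abundant transcript, whose direction turned. Several genes are counted more than once. With the replicate block 4761 genes and 20 partner genes passed, and the members called stayed at 2. Across genes, the deviations of libraries sharing a number correlated at 0.0606, so the numbers were not taken as pairs. Values without counts give no detection floor.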

Other observations

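The genes whose pattern over the 4 libraries was most like that of SDHD, by the Euclidean distance between deviations from each gene's mean log2(FPKM + 1), were SWAP70 (distance 0.0506), CHCHD4 (0.0680) and CENPB (0.0682). SWAP70 fell from 8.43 and 9.29 FPKM in sh-NC cells to 2.28 and 2.20 FPKM in sh-CEBPG#3 cells. CHCHD4, an oxidoreductase that imports cysteine-rich proteins into the mitochondrial intermembrane space, fell from 12.2 and 12.5 FPKM to 3.29 and 3.12 FPKM, so 26.0% of the control level remained. CENPB, which binds centromeric satellite DNA, fell from 37.9 and 41.6 FPKM to 11.9 and 12.4 FPKM. With 4 libraries in 2 groups, such a likeness says mainly that the sizes of the decreases are close.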
